A study of Mus musculus with 6 samples.

Results

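The cluster of miR-322, miR-503, miR-351, miR-542 and miR-450 is a group of X-linked miRNA genes of the mouse that lie side by side and are read as a single primary transcript. Its members were taken by name, as every row of the deposited miRNA table whose identifier begins with miR-322, miR-503, miR-351, miR-542, miR-450a or miR-450b. These were 13 of the 1300 rows, and they come from 7 hairpins. Levels were measured by small RNA sequencing of whole ovary in 6 libraries. The hypobaric hypoxia group comprised 3 libraries of female C57BL/6J mice kept in a decompression chamber at 43.12 kPa, which simulates an altitude given as 6500 m in the titles but as 5000 m in the descriptions. The normal pressure group comprised 3 libraries of female C57BL/6J mice housed at 83.56 kPa in Lanzhou, at 1588 m in the design text and 1500 m in the titles. Oxygen pressure was given as 8.1 kPa for the hypobaric hypoxia group and 17.8 kPa for the normal pressure group. The labels list 12 dark hours for every hypobaric library, and 12, 13 and 14 for normal-pressure libraries 1, 2 and 3. The design text gives 8-week-old animals, 15 per group, kept for 15 days, while the descriptions give 6 to 8 weeks of age and 15, 16 or 17 days by replicate number. Cycles had been synchronised with oral levonorgestrel and ethinylestradiol in both groups, and the doses, 0.1 and 0.02 mg/kg, are stated for the hypobaric mice alone. Whether a library holds 1 ovary donor or a pool is not stated, so the p-values measure the spread between libraries, which may be partly technical.

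A miRNA hairpin yields a 5p and a 3p strand. Usually the major strand is loaded into Argonaute and silences mRNAs that pair with its seed, while the minor strand is mostly degraded. miR-322, called miR-424 in humans, and miR-503 carry a seed of the miR-15/16 kind and repress cell-cycle regulators such as cyclin D1. Human miR-424 is induced by hypoxia in endothelial cells, where it targets the cullin CUL2 and stabilises the hypoxia-inducible factor. miR-351 carries the seed of miR-125, and miR-542-3p is known as a repressor of survivin.

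All 13 members matched a mature sequence of RefSeq on GRCm38.p6. They lie on the minus strand of chromosome X between 53048008 and 53054327, a span of 6320 bases. In the direction of transcription the order is miR-322, miR-503, miR-351, miR-542, miR-450a-2, miR-450a-1 and miR-450b. In GENCODE vM21 none of the 7 hairpins lies in an exon or intron of another gene. The lincRNA Gm28730 (53051194 to 53053159, same strand) fills part of the gap between miR-351 and miR-542. The sequences below are those on which the results turn, 5′ to 3′, with bases 2 to 8, the seed, in capitals. miR-16-5p, which is not a member, is shown for its seed.
miR-322-5p: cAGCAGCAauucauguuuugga
miR-503-5p: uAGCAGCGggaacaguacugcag
miR-16-5p: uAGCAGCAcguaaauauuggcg
miR-351-5p: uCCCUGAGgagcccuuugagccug
miR-322-3p: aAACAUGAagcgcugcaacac
miR-351-3p: gGUCAAGAggcgccugggaac
miR-542-5p: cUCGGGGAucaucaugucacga
miR-542-3p: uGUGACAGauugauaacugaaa
miR-450b-3p: aUUGGGAAcauuuugcaugcau
miR-450a-1-3p: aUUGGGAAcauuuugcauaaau
miR-322-5p and miR-16-5p have the same seed, and that of miR-503-5p matches them over bases 2 to 7. miR-450b-3p and miR-450a-1-3p share a run of 18 bases, so short reads of the pair cannot always be told apart. No other miRNA of the table with a sequence shares a run of 12 or more bases with a member.

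The hairpins of miR-322 (GRCm38.p6, chrX:53054255-53054349, minus strand) and miR-542 (chrX:53049403-53049487, minus strand) follow, with the 5p and then the 3p strand in capitals. They are shown because the balance of their strands is described further on.
Mir322: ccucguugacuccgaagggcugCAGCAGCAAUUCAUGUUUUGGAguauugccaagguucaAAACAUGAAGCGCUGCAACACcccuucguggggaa
Mir542: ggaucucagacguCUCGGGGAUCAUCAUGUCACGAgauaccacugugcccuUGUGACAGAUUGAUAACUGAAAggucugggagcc

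Values are reads per 1000000 reads of the library (RPM), and member names are shortened from those of the table, where they read mmu-miR-322-5p, mmu-miR-322-3p, mmu-miR-503-5p and so on. The libraries held 20976309 to 21243522 reads under hypobaric hypoxia and 20800777 to 22559146 at normal pressure, so that 3 reads were worth 0.141 to 0.143 and 0.133 to 0.144 RPM. The deviations of hypobaric library 3 and normal-pressure library 2 from their group means correlated at 0.56 across 475 miRNAs. This was the highest of the 9 pairings between groups, the lowest being -0.47. It does not show that either library is an outlier of its group. Results that change without these libraries are given both ways. The gonad-enriched miR-202-5p was abundant in every library, at 1921 to 2955 RPM under hypobaric hypoxia and 933 to 1257 RPM at normal pressure. The hypoxia-inducible miR-210-3p was at 16.0, 15.1 and 9.98 RPM in the hypobaric libraries and 3.48, 4.52 and 4.52 RPM at normal pressure (log2 change 1.49, limma adjusted p = 0.00679). Summed over 6 erythroid markers, led by miR-451a, the level was 9453 to 14987 RPM under hypobaric hypoxia and 691 to 1559 RPM at normal pressure. In whole ovary, fewer cells of a type and less RNA per cell cannot be told apart.

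**Figure D1:**
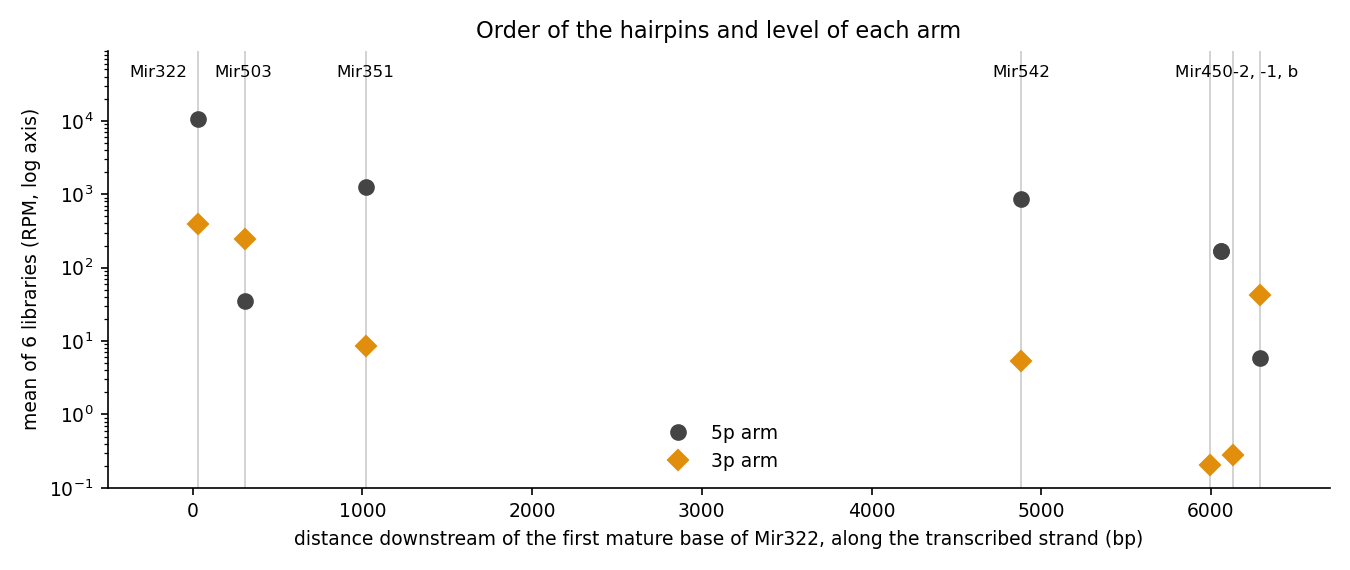
Position and level of the cluster members. The horizontal axis is the distance in bases downstream of miR-322 along the transcribed strand, and the vertical log axis is the mean level over all 6 libraries in RPM. Circles are 5p strands and diamonds 3p strands, and the circle of miR-450a-5p, made by both miR-450a hairpins, is set between them. The mean runs between 10499 RPM for miR-322-5p and 0.203 RPM for miR-450a-2-3p, and the 3p strand is the higher one in miR-503 and miR-450b.

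As a group the cluster was abundant and mostly made of miR-322-5p. Its 13 members summed to 16500, 16094 and 11198 RPM in hypobaric libraries 1, 2 and 3, and to 13645, 11822 and 11766 RPM in normal-pressure libraries 1, 2 and 3. The means were 14597 ± 2951 RPM under hypobaric hypoxia and 12411 ± 1069 RPM at normal pressure (SD, n = 3 each), and the groups overlapped, since hypobaric library 3 lay lowest of all 6. As a share of miRNA reads the cluster held 3.73% ± 0.693 under hypobaric hypoxia and 3.67% ± 0.277 at normal pressure (SD, n = 3 each). miR-322-5p alone made up 77.9% ± 4.68 of the summed level under hypobaric hypoxia and 76.6% ± 5.91 at normal pressure (SD, n = 3 each). It ranked 10 among all 1300 rows by mean level.

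Below miR-322-5p the levels fell over several orders of magnitude, although the hairpins share a primary transcript. RPM of different strands are compared here without correction for how well each sequence was ligated and amplified, which was not measured. miR-351-5p (mean of 6 libraries 1250 RPM) and miR-542-5p (852 RPM) came next, and their ranges overlapped. They were followed by miR-322-3p (391 RPM) and miR-503-3p (247 RPM). Their ranges over all libraries also overlapped, although miR-322-3p was the higher one in every hypobaric library. miR-450a-5p (167 RPM) lay clear of its neighbours on both sides. miR-450b-3p (42.9 RPM) overlapped with miR-503-5p (35.6 RPM). At the low end the ranges of miR-351-3p (8.46 RPM), miR-450b-5p (5.79 RPM) and miR-542-3p (5.37 RPM) overlapped. Within every library miR-351-3p was above miR-542-3p. The 3p strands of both miR-450a hairpins were at the limit of counting, with 2 to 16 reads for miR-450a-1-3p and 1 to 7 reads for miR-450a-2-3p in a library. Their low counts gave no basis for a comparison.

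**Figure D2:**
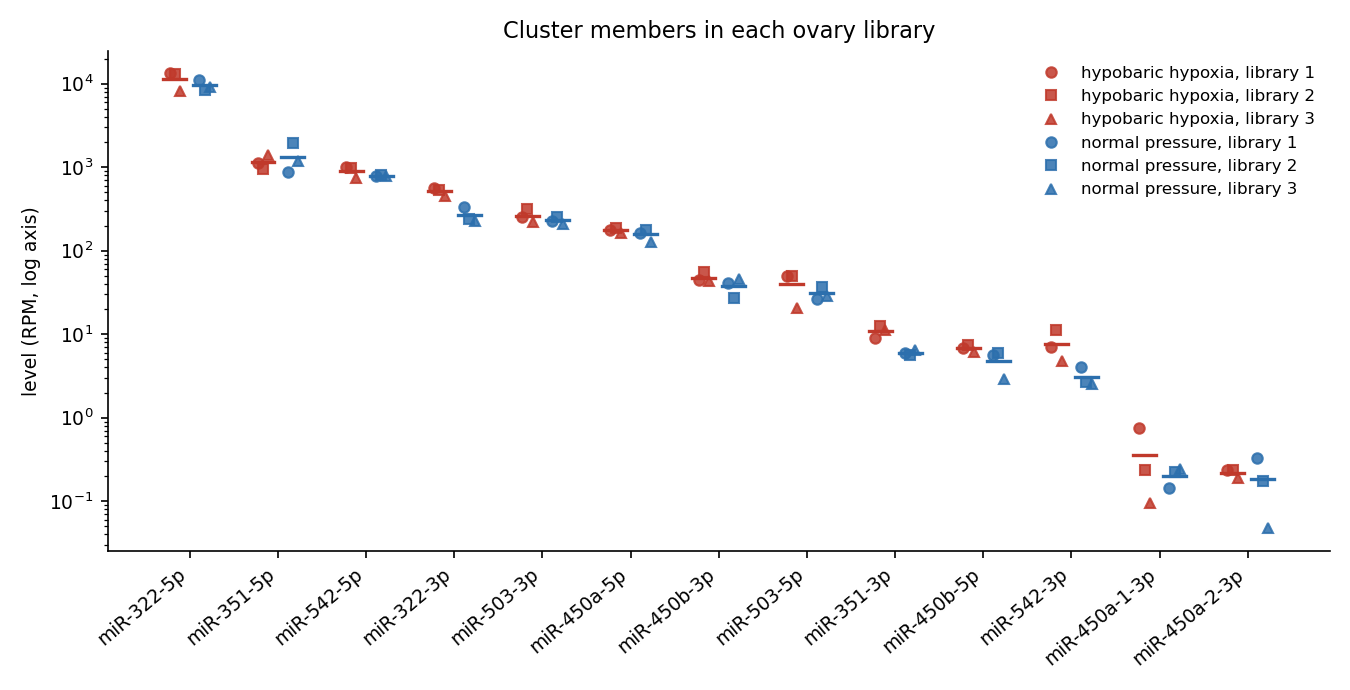
Level of each of the 13 members in each library, in RPM on a log axis, ordered by the mean of all libraries. Red symbols are the 3 hypobaric hypoxia libraries, blue symbols the 3 normal pressure libraries, symbol shapes the replicate numbers and horizontal bars the group means. The groups are apart for miR-322-3p, miR-351-3p, miR-450b-5p and miR-542-3p and overlap for the other 9.

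Of the 13 members, 11 had a mean of at least 1 RPM and entered the test of hypobaric hypoxia against normal pressure. One strand, miR-322-3p, rose, none fell and 10 did not pass. Among all 475 miRNAs tested 3.16% were called higher and 4.84% were called in either direction. The fit was limma on log2(RPM + 1), two-sided, with Benjamini-Hochberg adjustment over all 475. Fold changes on this scale understate those of low members. The log2 change was positive in 10 of the 11 members, against 65.7% of all tested miRNAs, and its median was 0.29 over the members and 0.15 over all tested. Other scalings brought the median of all tested miRNAs to between -0.05 and 0.01 and that of the members to between 0.04 and 0.22. The number of members with a positive change was then 6 to 9 of the 11, and the share of all tested 42.1% to 51.8%. The groups did not overlap, with hypobaric hypoxia higher, in 4 of the 11 members, against 19.2% of all tested. None was apart in the other direction, and 26.7% of all tested were apart in either. The miRNA share of all reads was itself higher under hypobaric hypoxia, at 41.1%, 38.0% and 38.1% in libraries 1, 2 and 3. At normal pressure it was 36.3%, 30.4% and 35.0%. RPM, counted per all reads, carries this difference, and overlap was not counted with other scalings. Before adjustment, 3 members had a limma p under 0.05, against 20.2% of all tested.

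miR-322-3p, the minor strand of the most abundant hairpin, was at 561, 533 and 447 RPM in the hypobaric libraries and at 336, 243 and 228 RPM in the normal-pressure libraries. Every hypobaric library lay above every normal-pressure one. The means were 514 ± 59.5 RPM under hypobaric hypoxia and 269 ± 58.7 RPM at normal pressure (SD, n = 3 each), a ratio of 1.91. The log2 change was 0.95 ± 0.21 (SE) with limma adjusted p = 0.0352. The call was lost with each of the 4 other scalings (adjusted p from 0.0527 to 0.0835) and with edgeR (0.0745). It was also lost without hypobaric library 1 (0.159) or 2 (0.147) or normal-pressure library 2 (0.0877) or 3 (0.103). Over all 20 alternatives the adjusted p ran between 0.00561 and 0.159.

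Its major strand, miR-322-5p, was at 13272, 12992 and 8117 RPM under hypobaric hypoxia and at 11173, 8300 and 9140 RPM at normal pressure. Hypobaric libraries 1 and 2 were the highest of all and hypobaric library 3 was the lowest, so the groups overlapped. The log2 change was 0.24 ± 0.21 (SE), with limma adjusted p = 0.524. Without hypobaric library 3 it was 0.47 with adjusted p = 0.148. The adjusted p lay between 0.133 and 0.989 over the 20 alternatives.

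Neither strand of miR-503 passed. miR-503-5p, which has nearly the seed of miR-322-5p, was at 50.3, 50.0 and 20.6 RPM under hypobaric hypoxia and at 26.2, 37.2 and 29.1 RPM at normal pressure. Here too hypobaric library 3 was lowest and the groups overlapped (log2 change 0.29 ± 0.35 SE, limma adjusted p = 0.645). Without hypobaric library 3 and normal-pressure library 2 the log2 change came to 0.84 and the limma adjusted p to 0.0348, the lowest of 20 alternatives that reached up to 0.960. Those libraries held the lowest hypobaric and the highest normal-pressure value of miR-503-5p, so leaving them out had to raise the change. miR-503-3p, the more abundant strand, was at 250, 318 and 219 RPM under hypobaric hypoxia and at 230, 253 and 210 RPM at normal pressure (limma adjusted p = 0.644).

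The major strand of miR-351 was the member with a negative log2 change. miR-351-5p was at 1113, 959 and 1415 RPM under hypobaric hypoxia and at 866, 1957 and 1189 RPM at normal pressure, with a log2 change of -0.14 ± 0.29 (SE) and limma adjusted p = 0.789. Its highest values came from hypobaric library 3 and normal-pressure library 2, which were the lowest of their groups for miR-322-5p. Without normal-pressure library 2 the change was 0.18. The minor strand miR-351-3p was at 9.01, 12.4 and 11.3 RPM under hypobaric hypoxia and at 6.00, 5.59 and 6.49 RPM at normal pressure, resting on 191 to 260 and 126 to 135 reads. These groups did not overlap, and the log2 change was 0.75 ± 0.20 (SE), but the adjusted p in limma was 0.0721.

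For miR-542 too, only the minor strand was apart between the groups. Its major strand miR-542-5p was at 1007, 967 and 750 RPM under hypobaric hypoxia and at 792, 813 and 784 RPM at normal pressure, with overlap (limma adjusted p = 0.589). The minor strand miR-542-3p was at 7.13, 11.1 and 4.75 RPM under hypobaric hypoxia and at 4.0, 2.70 and 2.55 RPM at normal pressure. The groups were apart, with 101 to 233 and 53 to 84 reads, and the log2 change was 1.04 ± 0.29 (SE) with limma adjusted p = 0.0837. Its limma adjusted p was 0.0286 without hypobaric library 3 and 0.0251 when normal-pressure library 2 was left out as well. Hypobaric library 3 held the lowest hypobaric value of miR-542-3p. Without hypobaric library 1 or 2 the limma adjusted p of miR-542-3p was 0.204 or 0.291. Without normal-pressure library 1, 2 or 3 alone it was 0.0970, 0.207 or 0.159. Over the 19 alternatives run for miR-542-3p the adjusted p lay between 0.0205 and 0.291.

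Among the miR-450 strands no member passed. miR-450a-5p, cut from both of its hairpins, was at 178, 189 and 164 RPM under hypobaric hypoxia and at 165, 177 and 129 RPM at normal pressure (limma adjusted p = 0.623). miR-450b-3p was at 44.2, 55.5 and 43.3 RPM under hypobaric hypoxia and at 40.8, 27.4 and 46.1 RPM at normal pressure (limma adjusted p = 0.452). Adding the reads of miR-450a-1-3p, which could not always be separated from it, gave 48.0 ± 6.74 RPM under hypobaric hypoxia and 38.3 ± 9.62 RPM at normal pressure (SD, n = 3 each), again with overlap. miR-450b-5p was at 6.89, 7.39 and 6.07 RPM under hypobaric hypoxia and at 5.57, 5.94 and 2.89 RPM at normal pressure. These groups were apart by a narrow margin, and the log2 change was 0.47 ± 0.26 (SE) with limma adjusted p = 0.325.

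**Figure D3:**
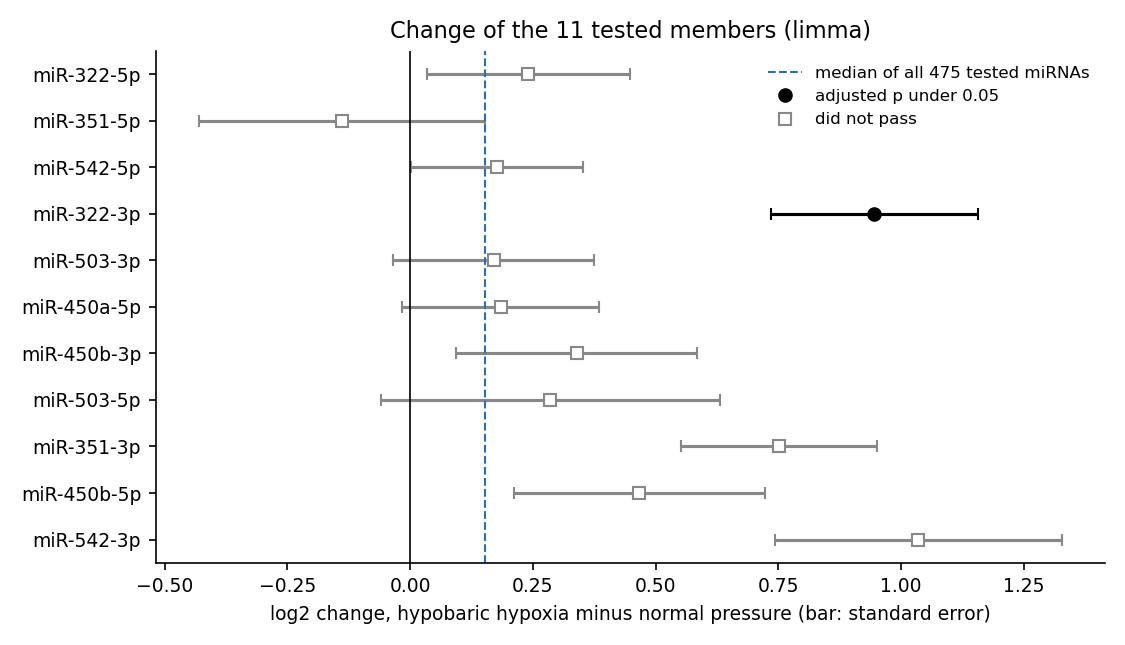
Log2 change of each of the 11 tested members, hypobaric hypoxia minus normal pressure, with bars for the standard error. The filled circle marks the member past an adjusted p of 0.05, open squares those that did not pass, and the dashed line the median of all 475 tested miRNAs (0.15). miR-322-3p, miR-542-3p and miR-351-3p lie farthest to the right, at 0.95, 1.04 and 0.75.

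The count tests ranked the same 3 minor strands first among the members but differed on the call. On the recovered whole reads, DESeq2 called miR-322-3p, miR-542-3p and miR-351-3p higher, with DESeq2 adjusted p of 0.00561, 0.0205 and 0.0386, where 7.66% of the miRNAs with an adjusted p were called higher. edgeR called none of the 11 members, with edgeR adjusted p of 0.0745, 0.115 and 0.115 for these strands, and 2.32% of all tested higher. At an unadjusted p under 0.05, edgeR had 3 of the 11 members and 101 of all 475.

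Both strands of a hairpin come from the same precursor, and the ratio of their RPM within a library is free of the library total. It was compared in the 5 hairpins whose strands both passed the filter, which leaves out miR-450a. For miR-322 the 5p strand exceeded the 3p strand 23.7, 24.4 and 18.2 times in the hypobaric libraries and 33.2, 34.2 and 40.1 times in the normal-pressure libraries. For miR-542 the ratio was 141, 87.0 and 158 under hypobaric hypoxia and 198, 301 and 308 at normal pressure. For miR-351 it was 124, 77.3 and 125 under hypobaric hypoxia and 144, 350 and 183 at normal pressure. In these 3 hairpins the groups did not overlap, which was the case for 21.5% of the 121 hairpins with both strands at a mean of at least 1 RPM, and for 9.09% of them with the balance moved towards the minor strand.

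In miR-503 and miR-450b, where the 3p strand is the major one, the groups overlapped. The 5p strand of miR-503 made up 13.0% ± 4.11 of both strands under hypobaric hypoxia and 11.7% ± 1.37 at normal pressure (SD, n = 3 each). That of miR-450b made up 12.5% ± 0.888 under hypobaric hypoxia and 11.9% ± 5.96 at normal pressure (SD, n = 3 each). In all 5 hairpins of the cluster the minor strand had the more positive log2 change, against 39.7% of the other 116 hairpins. It was 4 of the 5 without hypobaric library 1, where miR-503 turned, and 4 of the 5 without normal-pressure library 3, where miR-450b turned. The median of the minor-minus-major difference was 0.70 over the 5 and -0.08 over the other 116.

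None of the 5 hairpins passed the test of the balance, limma on the difference of log2(RPM + 1) between 5p and 3p, adjusted over the 121, where 2.48% were called. This difference changed by -0.70 ± 0.21 (SE) for miR-322 (limma adjusted p = 0.129), by -0.86 ± 0.28 for miR-542 (0.132) and by -0.89 ± 0.34 for miR-351 (0.237). The unadjusted limma p was under 0.05 in these 3 of the 5, against 12.4% of the 121. For miR-503 and miR-450b the change was 0.11 ± 0.30 and 0.13 ± 0.37 (SE), both with limma adjusted p = 0.872. Among the 2.48% called were miR-199a and miR-199b. Their 3p strands had opposite log2 changes of 6.54 and -7.25, while each of their 5p strands changed by 0.35. Whether reads were assigned to these names differently in the groups was not tested.

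**Figure D4:**
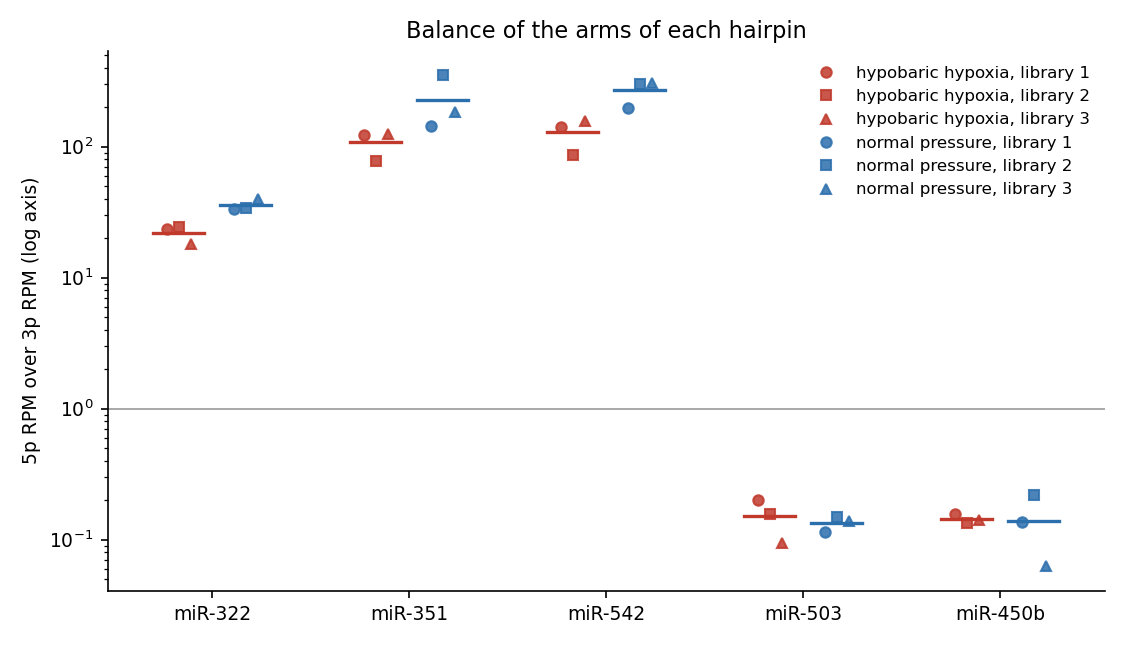
Ratio of the 5p to the 3p strand in each library, on a log axis, for the 5 hairpins with both strands at a mean of at least 1 RPM. Red symbols are the hypobaric hypoxia libraries, blue symbols the normal pressure libraries, bars the group means and the grey line equal strands. For miR-322, miR-351 and miR-542 every hypobaric library lies below every normal-pressure library, and for miR-503 and miR-450b the groups overlap.

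The seed that miR-322-5p and miR-503-5p carry is shared, over bases 2 to 7, by 5 other miRNAs of the table, all from other loci. Together the 7 summed to 24694 ± 4040 RPM under hypobaric hypoxia and 16665 ± 3027 RPM at normal pressure (SD, n = 3 each). The members of the cluster held 48.5%, 49.2% and 40.6% of that sum in hypobaric libraries 1, 2 and 3 and 58.1%, 62.5% and 52.8% in normal-pressure libraries 1, 2 and 3. The shares did not overlap. The other 5 carriers summed to 13193 ± 1150 RPM under hypobaric hypoxia and 7096 ± 1807 RPM at normal pressure (SD, n = 3 each). Of these 5, miR-16-5p rose to 8437 ± 588 RPM under hypobaric hypoxia, against 4000 ± 1118 RPM at normal pressure (SD, n = 3 each; limma adjusted p = 0.0161), and miR-15b-5p rose by 0.87 on the log2 scale (0.0148). miR-15a-5p, miR-195a-5p and miR-497a-5p did not pass, with log2 changes of 0.75, 0.82 and 0.38. miR-16 is also abundant in blood cells, and the part of the higher erythroid markers in this share was not tested.

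**Figure D5:**
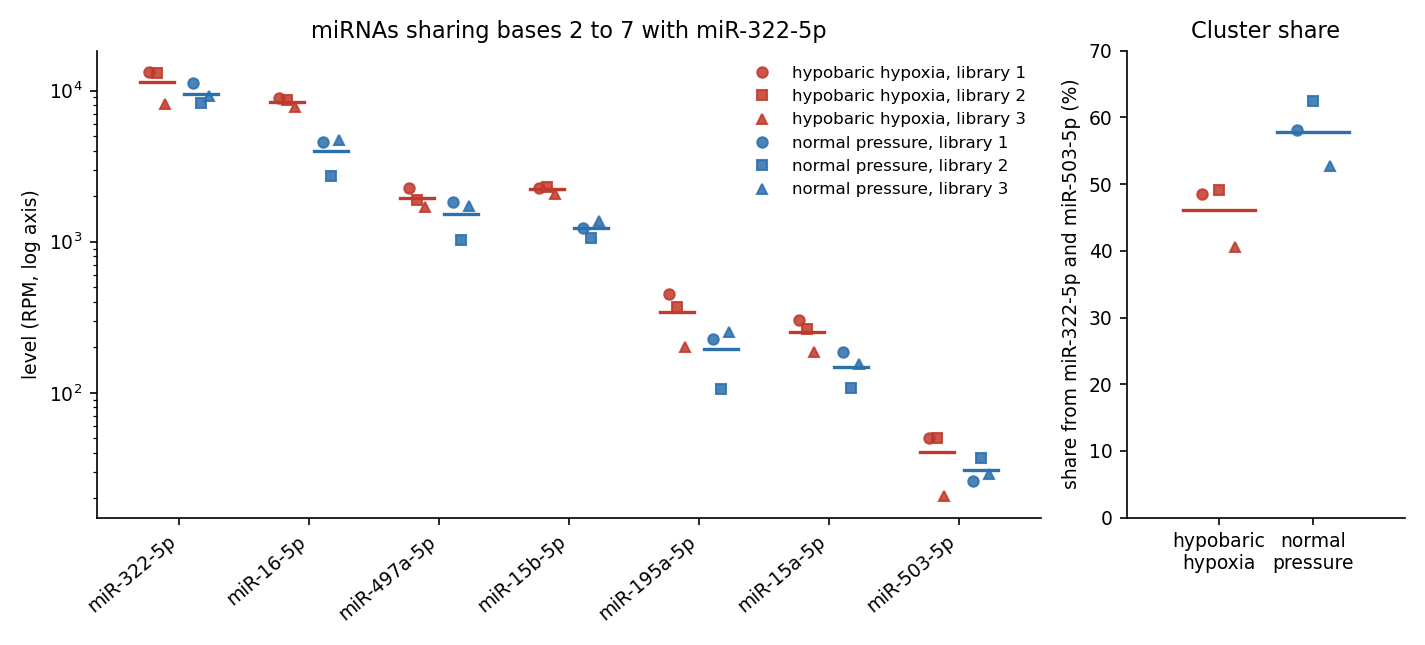
Left, level in RPM on a log axis of the 7 miRNAs that share bases 2 to 7 with miR-322-5p. Right, the percentage of their summed level that comes from miR-322-5p and miR-503-5p. Red symbols are the hypobaric hypoxia libraries, blue symbols the normal pressure libraries and bars the group means. The hypobaric libraries lie at 40.6% to 49.2% and the normal-pressure libraries at 52.8% to 62.5%.

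miR-351-5p shares its seed with miR-125a-5p and miR-125b-5p. Their sum including miR-351-5p was 2606 ± 242 RPM under hypobaric hypoxia and 2588 ± 562 RPM at normal pressure (SD, n = 3 each). miR-351-5p held 44.6% ± 7.82 of it under hypobaric hypoxia and 50.2% ± 10.3 at normal pressure (SD, n = 3 each), with overlap. Neither miR-125a-5p nor miR-125b-5p passed (limma adjusted p = 0.746 and 0.452).

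A second miRNA cluster, that of miR-106a to miR-363, lies 305441 bases away on the same strand. Its products past the filter were low or are also made at another locus. miR-20b-5p, encoded there alone, was at 8.38 ± 1.56 RPM under hypobaric hypoxia and 4.85 ± 1.45 RPM at normal pressure (SD, n = 3 each; limma adjusted p = 0.145). miR-363-3p and miR-106a-5p were below 1 RPM in the mean of the 6 libraries and were not tested. miR-19b-3p, which rose (log2 change 1.32, limma adjusted p = 0.0247), and miR-92a-3p, which did not pass (0.630), are also made by a cluster on chromosome 14.

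Across the 6 libraries, the mean log2 level of the 11 tested members was most like that of miR-20a-5p, with a Pearson r of 0.96 among 464 other miRNAs. It was followed by miR-30e-3p (0.95), miR-26b-5p (0.95), miR-299a-5p (0.93) and miR-202-5p (0.93). These values describe 6 libraries in 2 groups and share their scaling. In all 5, as in the cluster sum, hypobaric libraries 1 and 2 lay above hypobaric library 3, an order that choosing them by this correlation favours. Within its group, hypobaric library 3 was the lowest for 9 of the 11 tested members. The share of all tested miRNAs with this order was not counted. Among non-members, this library was also the lowest of its group for the seed carriers miR-16-5p, miR-15b-5p, miR-15a-5p, miR-195a-5p and miR-497a-5p. The same held for miR-125b-5p, miR-19b-3p, miR-20b-5p and miR-210-3p. It lay in the middle for miR-451a and miR-92a-1-5p and was the highest for miR-125a-5p, miR-92a-3p and the marker miR-150-5p. Whether the order is particular to the cluster was not tested.

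Other cell types were read from marker lists, whose summed levels overlapped between the groups with 3 exceptions. The erythroid list (6 of 6 markers present, 4 of the 5 tested rose) and the gonad list (miR-202, both strands rose) were higher under hypobaric hypoxia. The ciliated list of the oviduct was at 191 to 361 RPM under hypobaric hypoxia and 498 to 531 RPM at normal pressure, although none of its 3 markers passed. That difference came from miR-449a-5p, at 247 ± 85.1 RPM under hypobaric hypoxia and 469 ± 17.4 RPM at normal pressure (SD, n = 3 each), while miR-34c-5p and miR-34b-5p overlapped, with ratios of 1.09 and 1.20. In the smooth muscle, striated muscle, endothelial, stromal, leukocyte and epithelial lists none of the tested markers passed, and no marker of any list was at 0 in every library. Apart and higher under hypobaric hypoxia in these lists were miR-150-5p (ratio 1.61), miR-145a-5p (1.25), miR-145a-3p (1.39), miR-200a-3p (1.29), miR-200b-3p (1.45) and miR-205-5p (1.67). Their other markers overlapped. The hepatocyte marker miR-122-5p was at 0.763 to 1.51 RPM under hypobaric hypoxia and 0.222 to 1.30 RPM at normal pressure. The part of these cell types in the values of the cluster was not tested. Without the reads of the erythroid markers, the cluster held 3.85% ± 0.712 of miRNA reads under hypobaric hypoxia and 3.68% ± 0.278 at normal pressure (SD, n = 3 each).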

How the data were processed

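Small RNA was prepared from 1.3 µg of total RNA with gel selection, adapter ligation and PCR and read as 50-base single-end reads, per the labels' protocols. Bowtie2, DESeq2 and the build GRCm38.p6 stand in the submitters' processing notes, without role or version. The deposited values, called TPM in the table's name, are RPM. The assignment of reads matching several miRNAs was a step not given in the sources used here. With a tolerance of 0.0005 RPM, 100% came out as whole reads of 1 implied total per library. Floors of 3 reads cover counting error only, since reads carry no molecular identifiers.

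Groups and replicate numbers come from the titles. All libraries carry batch number 1. No 2 libraries of a group agreed within sampling noise (chi-square over degrees of freedom at least 167). The comparison used limma 3.58.1 in R 4.3.3 on log2(RPM + 1) with an intensity trend, over the 475 of 1300 rows whose mean reached 1 RPM, and a threshold of adjusted p of 0.05. The strand balance used the same test over 121 hairpin names. Recovered reads entered edgeR 4.0.16 and DESeq2 1.42.0 as alternatives. Other alternatives changed the scaling, pseudocount, filter, variance trend, replicate block, feature set and libraries. The steps were also run on simulated counts whose changes were larger than those of most members, and no result here rests on that run. Sums, sequences and figures used Python 3.11.15 with pandas 2.3.3, numpy 2.4.6 and matplotlib 3.10.9.

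All 13 members are named. Beside them the rule names carriers of bases 2 to 7 of miR-322-5p, miR-503-5p or miR-351-5p, the neighbouring miR-106a to miR-363 cluster, miR-210-3p, miR-451a and the 5 miRNAs most correlated with the members' mean. Members, lists and rules were chosen with earlier results of these data known.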

Additional observations from a re-analysis of the deposited data

How the results depend on the processing

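The count of all miRNAs called was 23, between 10 and 34 when 1 library was left out, 49 without hypobaric library 3 and normal-pressure library 2 together, and 63 with DESeq2. Of the cluster members 1 was called. This was 0 with median-of-ratios scaling, scaling to miRNA reads, totals without the 10 most abundant miRNAs, quantile normalization and edgeR, 0 to 2 without 1 library, 3 without that pair of libraries and 3 with DESeq2. The higher share of all calls was 65.2%, against 38.7% to 46.2% with the 4 other scalings. miR-322-3p passed in 11 of 20 alternatives, with log2 changes of 0.70 to 1.12, all positive. The summed level of the cluster had a log2 change of 0.22, between 0.12 and 0.40 without 1 library, and -0.0323 with totals without the 10 most abundant miRNAs. No hairpin of the cluster passed the strand balance test in any of the 13 alternatives run for it.

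Members with small log2 changes turned sign. With median-of-ratios scaling miR-503-3p was at -0.0025. Scaled to miRNA reads, miR-503-3p was at -0.0355, miR-450a-5p at -0.0216 and miR-542-5p at -0.0293. With totals without the 10 most abundant miRNAs, miR-322-5p was at -0.0070, miR-450a-5p at -0.0625, miR-503-3p at -0.0766 and miR-542-5p at -0.0705. With quantile normalization miR-322-5p was at -0.0550. With edgeR miR-450a-5p was at -0.0281, miR-503-3p at -0.0169 and miR-542-5p at -0.0095, and with DESeq2 miR-450a-5p at -0.0152 and miR-503-3p at -0.0022. Without 1 library miR-351-5p ran between -0.41 and 0.18, the strand balance of miR-503 between -0.12 and 0.41 and that of miR-450b between -0.29 and 0.49. Without hypobaric library 3 and normal-pressure library 2 together miR-351-5p was at 0.0256. The cause was not tested.

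Same-numbered libraries deviated together at 0.35, -0.47 and -0.29, so the numbers are not taken as pairs, and not every library correlated best with its own number. With the replicate number as a block, 23 miRNAs and 1 member were called and miR-322-3p had an adjusted p of 0.0435 in limma. Depth limits the strands of miR-450a on the 3p side, at 1 to 16 reads.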
